A study of Oryza sativa with 4 samples.

Results

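Enzymes of the Calvin cycle and of photorespiration were followed in leaves of rice seedlings (Oryza sativa, genotype Dongjin) given a nitric oxide donor. The set holds 29 nuclear loci, 17 of the Calvin cycle and 12 of photorespiration, out of 57995 loci in the deposited tables. Its members were chosen by locus name from a list of enzymes. Their values were not the rule of choice, but earlier results of these data were known. Seedlings 7 days old, grown at 23 °C with 16 h of light and 8 h of dark, were irrigated with 5 mM S-nitrosocysteine (CysNO), a thiol that carries and releases nitric oxide, in the treated group (2 libraries), or with the buffer, 1 mM HCl, in the control group (2 libraries). The question was which leaf transcripts respond to CysNO. No group received cysteine without nitric oxide, and the labels give neither the hours between irrigation and harvest nor the number of plants behind a library. Whether the pair of libraries in a group stems from different plants is not stated, and the p-values therefore cover the spread between libraries, which may be technical.

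The Calvin cycle fixes carbon dioxide in the chloroplast. Rubisco, built of large subunits encoded in the chloroplast and small subunits encoded in the nucleus, joins carbon dioxide to ribulose bisphosphate, and the other enzymes reduce the product to sugar phosphates and rebuild the acceptor. Rubisco also takes oxygen, which yields phosphoglycolate, and photorespiration returns that carbon to the cycle through the chloroplast, the peroxisome and the mitochondrion. In leaves these transcripts are among the most abundant, and their levels are known to follow light and development.

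The deposited files give a symbol for none of the 29 loci. The member list itself pairs 5 loci with an enzyme (Rubisco activase, phosphoribulokinase and 3 glycolate oxidases), and the other pairings follow the order of that list and general knowledge of the rice annotation. For 3 Calvin cycle loci, LOC_Os09g36450, LOC_Os03g07300 and LOC_Os07g08030, the list names no enzyme, and they are given by locus name only. Values are FPKM, fragments scaled to transcript length and to the mapped fragments of the library, as the authors deposited them. Each library summed to between 687469 and 732401 FPKM over all loci. Read counts are not given, but in 594 loci of low level the most frequent ratio put the depth at 0.825 and 1.08 in CysNO 1 and CysNO 2, and at 1.07 in control 2, relative to control 1. All 29 loci were above 0 in all 4 libraries and passed the filter of 1 FPKM in 2 libraries, as did 21123 loci in all.

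The labelled tissue was checked against markers whose pairing with a locus rests on general knowledge. The light-harvesting loci had 1280 and 1997 FPKM (LOC_Os01g41710) and 279 and 288 FPKM (LOC_Os09g17740) in CysNO, against 2320 and 2110 FPKM and 436 and 256 FPKM in control. A root marker locus, LOC_Os02g44310, had 4.47 and 96.4 FPKM in CysNO, against 1.64 and 4.39 FPKM in control, so the CysNO 2 library stood apart in that locus. The part of this difference in the results below was not tested. In bulk leaf RNA, fewer cells of a type and less RNA per cell cannot be told apart.

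With CysNO, 26 of the 29 loci had lower mean log2 levels and 3 had higher ones, but none passed the test. Of the 29, 0 were called higher and 0 lower (limma on log2(FPKM + 1), adjusted p from 0.0566 to 0.959 over all tested loci), where 4.23% of all tested loci were called, 3.27% higher and 0.956% lower. At an unadjusted p under 0.05, 1 locus was higher and 10 were lower, against 9.66% and 8.39% of all tested loci. Over the 29 loci the log2 fold change had a median of -0.82. The median was -0.82 over the Calvin cycle loci and -0.85 over the photorespiration loci, against -0.014 over all tested loci. In 15 loci both CysNO libraries lay below both controls, and in 1 both lay above, where 24.9% and 21.5% of all tested loci did so. The remaining 13 loci overlapped between groups.

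The spread within the control group was as large as the difference between groups. The 29 loci summed to 3068 and 4648 FPKM in CysNO, against 9316 FPKM in control 1 and 4927 FPKM in control 2. Control 1 was above control 2 in 28 of the 29 loci, with a median log2 difference of 0.93, while over all tested loci control 1 was the higher one in 62.2%, with a median of 0.12. CysNO 2 was above CysNO 1 in 27 loci, with a median log2 difference of 0.60, where 39.4% of all tested loci went that way with a median of -0.12. By summed level CysNO 1 was thus the lowest library and control 1 the highest, with CysNO 2 and control 2 close to each other.

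Pairs of single libraries show how far the difference rested on control 1 and on CysNO 1. CysNO 1 was below control 1 in 28 of the 29 loci (median log2 difference -1.55) and below control 2 in 24 (median -0.69). Of all tested loci, 48.4% were below control 1 (median 0.024) and 40.8% below control 2 (median 0.14) in that library. CysNO 2 was below control 1 in 27 loci (median -0.88) but below control 2 in 15 and above it in 14 (median -0.035). Here 65.0% of all tested loci were below control 1 (median -0.18) and 53.3% below control 2 (median -0.038). Without control 1, the 29 loci had a median log2 fold change of -0.34, and 22 were below 0. Leaving out CysNO 1 gave a median of -0.43, with 25 below 0, and leaving out CysNO 2 gave -1.15, with 28 below 0. Without control 2 this median was -1.28, and 9 loci were called lower, where 2.75% of all loci tested without that library were. Those 9 were the activase locus, the phosphoribulokinase locus, the CP12 locus, the small-subunit locus LOC_Os12g19470, the glycolate oxidase loci LOC_Os03g57220 and LOC_Os07g05820, both AGT loci and the HPR locus. A lone control gives no spread of its own, so that fit assumes that it varies like the CysNO group.

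**Figure D1:**
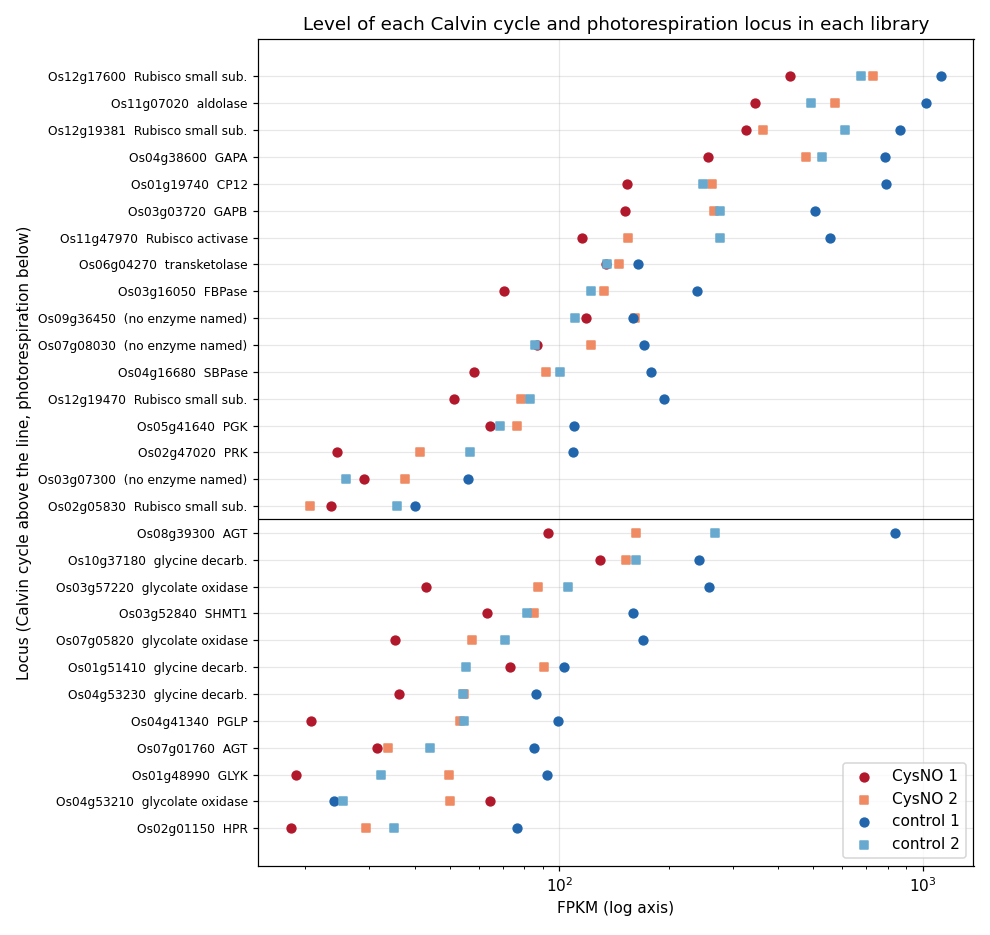
FPKM (log axis) of each of the 29 loci in each library, Calvin cycle above the line and photorespiration below, ordered by mean level. Red and orange points are the CysNO libraries and blue points the controls. Control 1 is the highest of the controls in 28 loci, and control 2 and CysNO 2 lie close together in most.

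Of the small-subunit loci of Rubisco, LOC_Os12g17600 had the highest mean level of the 29 loci and LOC_Os02g05830 the lowest. LOC_Os12g17600 had 430 and 731 FPKM in CysNO, against 1122 and 676 FPKM in control. Its groups overlapped, and its log2 fold change was -0.63 ± 0.44 (SE; limma, adjusted p = 0.547). LOC_Os12g19381 had 327 and 363 FPKM in CysNO, against 868 and 611 FPKM in control. Here both CysNO libraries were below both controls, with 345 ± 25.9 FPKM in CysNO and 739 ± 181 FPKM in control (SD, n = 2 each), and its log2 fold change was -1.08 ± 0.35 (SE; limma, adjusted p = 0.160). LOC_Os12g19470 had 51.4 and 78.7 FPKM in CysNO, against 194 and 83.4 FPKM in control, so that CysNO 2 and control 2 were nearly level.

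LOC_Os02g05830, the small-subunit locus outside chromosome 12, was the least abundant of the 4, with 23.6 and 20.6 FPKM in CysNO, against 40.0 and 35.8 FPKM in control. Within the control group it was the most even of the 4, and its means were 22.1 ± 2.10 FPKM in CysNO and 37.9 ± 2.98 FPKM in control (SD, n = 2 each). Its log2 fold change was -0.75 ± 0.25 (SE; limma, adjusted p = 0.170), and it was -0.68 without control 1 and -0.83 without control 2, a smaller shift than for the other small-subunit loci. Small-subunit genes are near copies of each other, and the rule by which reads were divided among such copies was not given in the sources used here. The split between the 4 loci is therefore uncertain.

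Summed, the small-subunit loci had 832 and 1194 FPKM in CysNO, against 2224 and 1406 FPKM in control. They made up 34.1% and 31.9% of the Calvin cycle sum in CysNO and 31.4% and 35.7% in control, so that their weight within the cycle overlapped between groups. The chloroplast gene rbcL, for the large subunit, had 8.38 and 36.0 FPKM in CysNO, against 20.1 and 16.1 FPKM in control, which also overlapped. Chloroplast RNA is mostly without poly(A) tails and is under-represented in these poly(A) libraries.

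Rubisco activase, LOC_Os11g47970, uses ATP to free Rubisco of inhibiting sugar phosphates. It had 115 and 154 FPKM in CysNO, against 556 and 277 FPKM in control, and even the lower control was above the higher CysNO library. The means were 135 ± 27.7 FPKM in CysNO and 417 ± 197 FPKM in control (SD, n = 2 each), and its log2 fold change was -1.55 ± 0.40 (SE; limma, adjusted p = 0.0838, from 0.0131 to 0.424 over the other settings tried except a crossed pairing). That pairing, of CysNO 1 with control 2 and CysNO 2 with control 1, was added after the data were seen and gave an adjusted p of 2.85e-05 in limma. No label gives the pairing, and its value lends no support to a difference. Without control 1 the log2 fold change was -1.05 and without control 2 it was -2.05. Relative to the small-subunit sum of the same library, activase stood at 13.9% and 12.9% in CysNO, against 25.0% and 19.7% in control. That ratio did not overlap between groups, and with 2 libraries a group an exact permutation test could not go below p = 0.333.

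Phosphoribulokinase (PRK), LOC_Os02g47020, makes the acceptor of carbon dioxide. It had 24.6 and 41.5 FPKM in CysNO, against 109 and 57.0 FPKM in control, without overlap, and its log2 fold change was -1.28 ± 0.39 (SE; limma, adjusted p = 0.139). CP12, LOC_Os01g19740, is a small protein that binds PRK and glyceraldehyde-phosphate dehydrogenase into an inactive complex. It had 153 and 264 FPKM in CysNO, against 795 FPKM in control 1 and 249 FPKM in control 2. The CP12 groups overlapped, control 1 was 3.19 times control 2, and the log2 fold change, -1.14 ± 0.56 (SE; limma, adjusted p = 0.354), was -0.31 without control 1 and -1.98 without control 2. CP12 had the widest gap between controls of the 29 loci.

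The chloroplast glyceraldehyde-phosphate dehydrogenase, which carries out the reducing step, has subunits A and B. GAPA, LOC_Os04g38600, had 256 and 478 FPKM in CysNO, against 789 and 527 FPKM in control. GAPB, LOC_Os03g03720, had 151 and 266 FPKM in CysNO, against 507 and 276 FPKM in control. Their log2 fold changes were -0.88 ± 0.43 and -0.90 ± 0.43 (SE; limma, adjusted p = 0.342 and 0.334). The ratio of GAPA to GAPB was 1.69 and 1.80 in CysNO, against 1.56 and 1.91 in control, so it differed more within the controls than between the groups.

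The bisphosphatases, which drive the rebuilding of the acceptor, gave similar values. SBPase, sedoheptulose bisphosphatase (LOC_Os04g16680), had 58.4 and 91.7 FPKM in CysNO, against 179 and 101 FPKM in control (log2 fold change -0.87 ± 0.37, SE; limma, adjusted p = 0.282). FBPase, fructose bisphosphatase (LOC_Os03g16050), had 70.6 and 133 FPKM in CysNO, against 239 and 123 FPKM in control (log2 fold change -0.82 ± 0.43, SE; limma, adjusted p = 0.392). SBPase did not overlap between groups and FBPase did. Aldolase, LOC_Os11g07020, which joins triose phosphates, had 346 and 575 FPKM in CysNO, against 1018 and 494 FPKM in control, and overlapped (log2 fold change -0.67 ± 0.47, SE; limma, adjusted p = 0.549). Aldolase made up 14.2% and 15.4% of the Calvin cycle sum in CysNO, against 14.4% and 12.6% in control.

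Other Calvin cycle loci had smaller log2 fold changes, with wide intervals. Transketolase, LOC_Os06g04270, which moves carbon units between sugar phosphates, had 134 and 146 FPKM in CysNO, against 165 and 135 FPKM in control. Its log2 fold change was -0.091, with a 95% interval from -0.74 to 0.56 (limma, adjusted p = 0.926), so a change of moderate size in either direction lies within the interval. Phosphoglycerate kinase (PGK), LOC_Os05g41640, had 64.7 and 76.7 FPKM in CysNO, against 110 and 68.6 FPKM in control (log2 fold change -0.30, 95% interval -1.03 to 0.44). Both loci overlapped between groups, and for each the sign was positive without control 1 (0.052 for transketolase and 0.038 for PGK).

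The 3 loci without a named enzyme also overlapped. LOC_Os09g36450 had 118 and 161 FPKM in CysNO, against 159 and 111 FPKM in control (log2 fold change 0.058, 95% interval -0.69 to 0.81). LOC_Os07g08030 had 86.8 and 122 FPKM in CysNO, against 172 and 86.1 FPKM in control (log2 fold change -0.23). LOC_Os03g07300 had 29.0 and 37.6 FPKM in CysNO, against 56.2 and 25.9 FPKM in control (log2 fold change -0.21). In the last pair the CysNO libraries lay between the controls, and the log2 fold changes without control 1 were 0.26 and 0.34. LOC_Os03g07300 shares bases with LOC_Os03g07310 on the opposite strand, which had 4.40 and 3.88 FPKM in CysNO, against 3.89 and 2.76 FPKM in control, and whether counting used strand was not given in the sources used here.

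**Figure D2:**
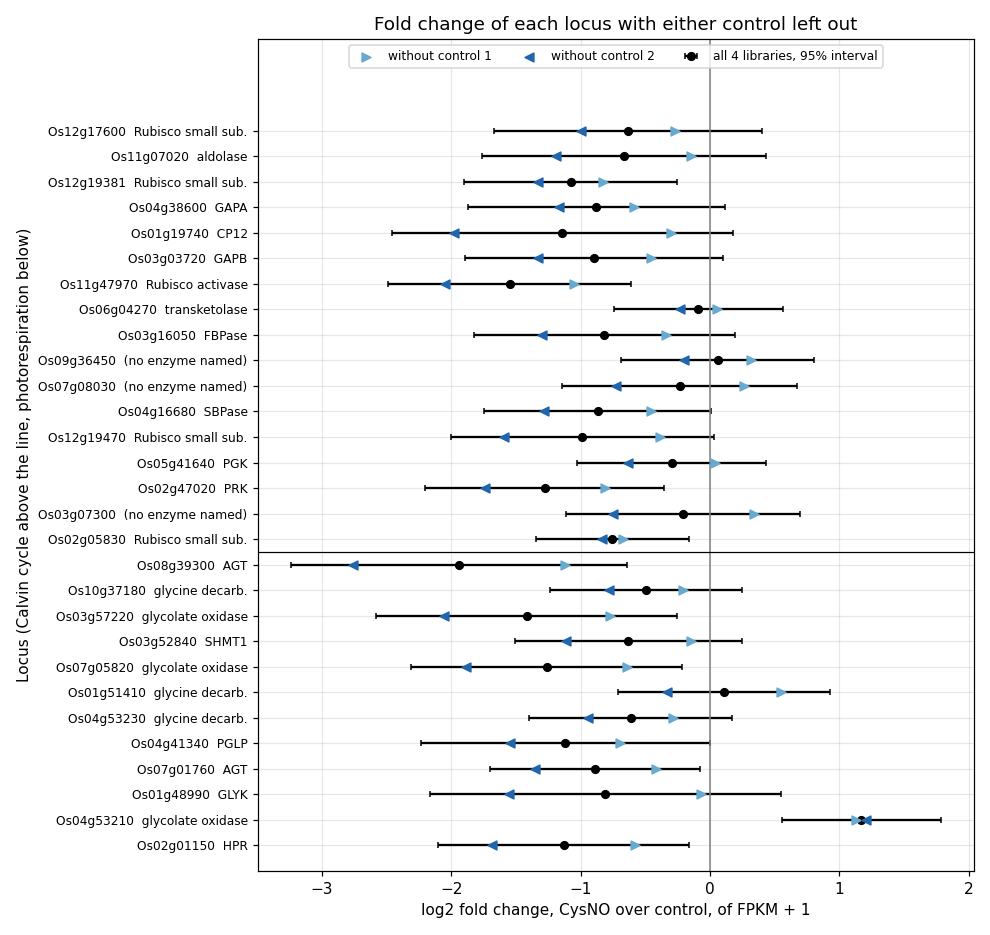
Log2 fold change of FPKM + 1, CysNO over control, of each locus. Black points and bars are the limma estimate and its 95% interval with all 4 libraries, right-pointing triangles the estimate without control 1 and left-pointing triangles that without control 2. In 28 loci the estimate without control 1 lies to the right of that without control 2, and in LOC_Os04g53210 it lies to the left of it.

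Photorespiration starts with phosphoglycolate phosphatase (PGLP), LOC_Os04g41340, which removes the phosphate in the chloroplast. It had 20.7 and 53.4 FPKM in CysNO, against 99.3 and 54.7 FPKM in control. The groups did not overlap, but CysNO 2 and control 2 were almost level, and the log2 fold change was -1.12 ± 0.48 (SE; limma, adjusted p = 0.276). At the end of the pathway glycerate kinase (GLYK), LOC_Os01g48990, returns glycerate to the cycle. It had 18.8 and 49.8 FPKM in CysNO, against 92.4 and 32.3 FPKM in control, with overlap, and its log2 fold change was -0.81 ± 0.58 (SE; limma, adjusted p = 0.557), the widest standard error of the 29. Both loci thus differed more than 2.5-fold between the CysNO libraries, at 2.57 and 2.64 times.

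Glycolate oxidase, which oxidises glycolate in the peroxisome and releases hydrogen peroxide, was a step at which loci listed for the same enzyme differed in direction. LOC_Os03g57220, the most abundant of the 3 over all libraries, had 42.9 and 87.6 FPKM in CysNO, against 258 and 106 FPKM in control (log2 fold change -1.42 ± 0.50, SE; limma, adjusted p = 0.189). LOC_Os07g05820 had 35.4 and 57.7 FPKM in CysNO, against 170 and 71.1 FPKM in control (log2 fold change -1.26 ± 0.45, SE; limma, adjusted p = 0.191). In both of these loci the CysNO libraries lay below the controls.

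LOC_Os04g53210 went the other way. It had 64.7 and 50.1 FPKM in CysNO, against 24.1 and 25.5 FPKM in control, and was the 1 locus of the 29 with both CysNO libraries above both controls. The means were 57.4 ± 10.3 FPKM in CysNO and 24.8 ± 0.966 FPKM in control (SD, n = 2 each), and the log2 fold change was 1.17 ± 0.26 (SE). It did not pass over all tested loci (limma, adjusted p = 0.0566) and passed with a filter of 5 FPKM, which tests fewer loci (limma, adjusted p = 0.0427, with 0.0427 to 0.311 over the other settings tried except a crossed pairing of libraries). The crossed pairing, which no label gives and which was added after the data were seen, gave an adjusted p of 0.00135 in limma. That value lends no support to a difference. The log2 fold change was 1.13 without control 1, 1.21 without control 2, 0.99 without CysNO 1 and 1.35 without CysNO 2. It was also the 1 locus in which control 1 was not above control 2.

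As a share of the 3 glycolate oxidase loci, LOC_Os04g53210 made up 45.2% and 25.6% in CysNO, against 5.33% and 12.6% in control. LOC_Os03g57220 made up 30.0% and 44.8% in CysNO, against 57.1% and 52.3% in control, and LOC_Os07g05820 made up 24.8% and 29.5% in CysNO, against 37.5% and 35.1% in control. These shares, which a scaling common to a whole library cannot move, did not overlap between groups for any of the 3 loci. They are parts of 1 sum, so a higher share of LOC_Os04g53210 lowers the other shares by arithmetic. The 3 are therefore not separate results. The summed level of the 3 loci was 143 and 195 FPKM in CysNO, against 452 and 202 FPKM in control. In CysNO 1, LOC_Os04g53210 was the most abundant of the 3. In the other CysNO library it was the least abundant, as in both controls. The handling of reads common to such related loci was not given in the sources used here.

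LOC_Os04g53210 lies on chromosome 4, bases 31503610 to 31507485, plus strand, in the files' coordinates, whose build was not given in the sources used here. The next loci on that strand are LOC_Os04g53214 and LOC_Os04g53220, followed by the member LOC_Os04g53230, all within the next stretch to base 31518510. LOC_Os04g53214 had 5.98 and 7.96 FPKM in CysNO, against 9.72 and 4.96 FPKM in control. LOC_Os04g53220 had 25.9 and 18.8 FPKM in CysNO, against 28.0 and 29.9 FPKM in control. Neither neighbour was higher in both CysNO libraries.

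The aminotransferase step, at which glyoxylate becomes glycine in the peroxisome, held the lowest log2 fold change of the 29. LOC_Os08g39300, the more abundant of the loci listed for glyoxylate aminotransferase (AGT), had 93.1 and 162 FPKM in CysNO, against 840 and 269 FPKM in control. The groups did not overlap, and the means were 128 ± 49.1 FPKM in CysNO and 555 ± 404 FPKM in control (SD, n = 2 each). The log2 fold change was -1.94 ± 0.55 (SE; limma, adjusted p = 0.112), and it was -1.12 without control 1 and -2.76 without control 2. LOC_Os07g01760 had 31.6 and 33.9 FPKM in CysNO, against 85.3 and 44.0 FPKM in control (log2 fold change -0.89 ± 0.35, SE; limma, adjusted p = 0.234). LOC_Os08g39300 made up 74.7% and 82.8% of the pair in CysNO, against 90.8% and 85.9% in control.

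The mitochondrial steps gave smaller values. Glycine decarboxylase, a complex of several proteins, joins with serine hydroxymethyltransferase to turn glycine into serine. Of the 3 loci listed for the complex, LOC_Os10g37180 had 129 and 153 FPKM in CysNO, against 243 and 162 FPKM in control (log2 fold change -0.49 ± 0.32, SE; limma, adjusted p = 0.498). LOC_Os04g53230 had 36.2 and 54.6 FPKM in CysNO, against 86.3 and 54.5 FPKM in control (log2 fold change -0.62 ± 0.34, SE; limma, adjusted p = 0.410). LOC_Os01g51410 had 73.0 and 91.0 FPKM in CysNO, against 103 and 55.3 FPKM in control, so its CysNO libraries lay between the controls (log2 fold change 0.11, 95% interval -0.71 to 0.93). LOC_Os01g51410 made up 30.6% and 30.5% of the 3 loci in CysNO, against 23.8% and 20.3% in control, without overlap. SHMT1, the hydroxymethyltransferase locus LOC_Os03g52840, had 63.5 and 85.0 FPKM in CysNO, against 160 and 81.6 FPKM in control, and overlapped (log2 fold change -0.63 ± 0.37, SE; limma, adjusted p = 0.456).

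Hydroxypyruvate reductase (HPR), LOC_Os02g01150, which makes glycerate in the peroxisome, had 18.3 and 29.4 FPKM in CysNO, against 76.8 and 35.2 FPKM in control. The groups did not overlap, and its log2 fold change was -1.13 ± 0.41 (SE; limma, adjusted p = 0.204), -0.58 without control 1 and -1.68 without control 2. The locus shares bases with LOC_Os02g01140 on the opposite strand, which had 1.70 and 3.44 FPKM in CysNO, against 5.16 and 7.07 FPKM in control. The 12 photorespiration loci summed to 628 and 908 FPKM in CysNO, against 2239 and 991 FPKM in control. Set against the Calvin cycle sum this was 25.7% and 24.3% in CysNO, against 31.6% and 25.2% in control, where 1 control lay inside the range of the CysNO libraries.

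Since most of the 29 loci moved together with the library, each locus was also placed within its own library. Its place is its log2(FPKM + 1) minus the median over the 29 loci. On this scale 11 loci were lower in both CysNO libraries than in both controls, 7 were higher and 11 overlapped, where 3.48% of all tested loci were lower and 37.7% higher by the same measure. The median that is taken away was 64.7 and 91.0 FPKM in CysNO, against 170 and 86.1 FPKM in control. By group mean it was lower in CysNO, but in CysNO 2 it was above that in control 2. On average this shifts other loci upward, so the background is not even. AGT LOC_Os08g39300 had the largest drop in place, at 0.52 and 0.83 in CysNO, against 2.30 and 1.63 in control. Activase came next, at 0.82 and 0.76 in CysNO, against 1.71 and 1.68 in control, with the values of each group close together. PRK, HPR and the glycolate oxidase loci LOC_Os03g57220 and LOC_Os07g05820 were also among the 11.

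Of the 7 that stood higher, LOC_Os04g53210 moved furthest, at -0.00058 and -0.85 in CysNO, against -2.77 and -1.72 in control. LOC_Os01g51410 of glycine decarboxylase stood at 0.17 and 0 in CysNO, against -0.71 and -0.63 in control. Transketolase, PGK and the 3 loci without a named enzyme made up the rest. A higher place is not a higher level: the log2 fold changes of transketolase and PGK were -0.091 and -0.30. SHMT1 kept its place, at -0.028 and -0.097 in CysNO, against -0.085 and -0.076 in control. No test was made on these places, since 2 libraries a group cannot reach a p under 0.333 in an exact permutation test.

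**Figure D3:**
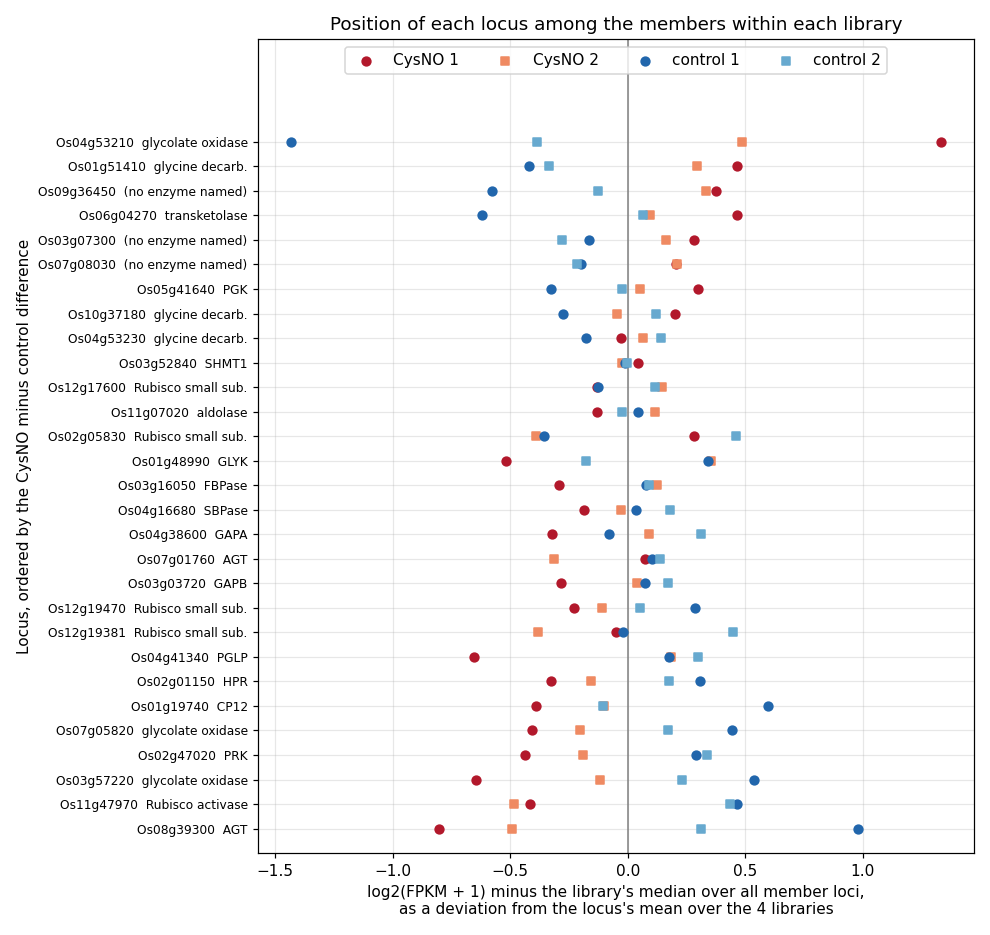
Place of each locus within its library: log2(FPKM + 1) minus the library's median over the 29 loci, drawn as the deviation from the locus's own mean over the 4 libraries. Loci are ordered by the CysNO minus control difference, with red and orange for CysNO and blue for control. LOC_Os04g53210 stands at the top and LOC_Os08g39300 at the bottom.

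**Figure D4:**
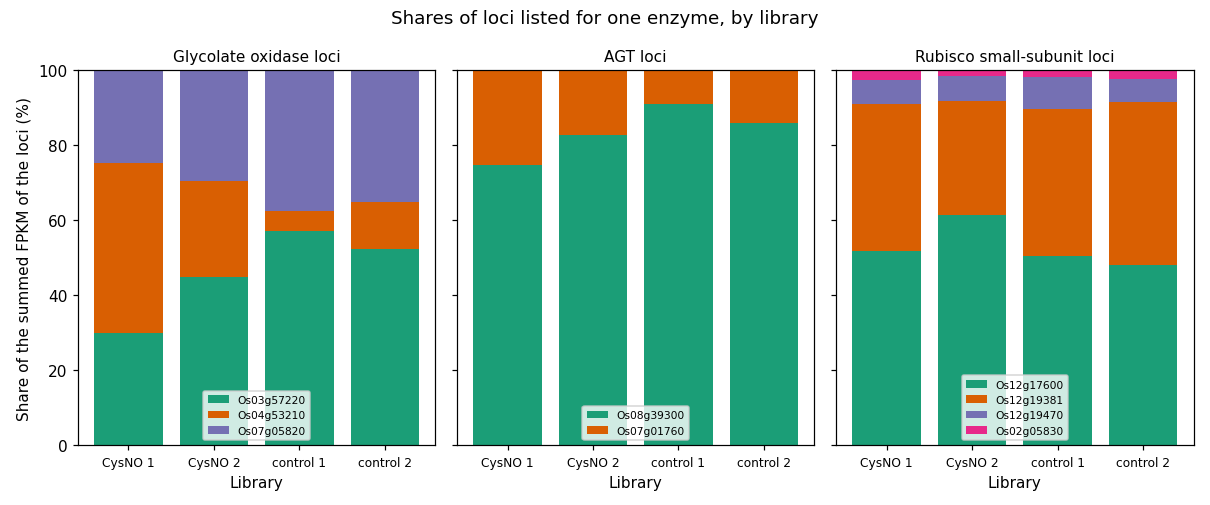
Share of each locus in the summed FPKM of the loci listed for the same enzyme, for glycolate oxidase, AGT and the Rubisco small subunit, in each library. LOC_Os04g53210 takes 45.2% and 25.6% of the glycolate oxidase sum in the CysNO libraries and 5.33% and 12.6% in the controls, while the small-subunit shares overlap between groups for 3 of the 4 loci.

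Other loci of the same enzyme steps were listed by locus name from general knowledge, and neither the files nor the RefSeq gene table names them. The list was meant to hold mostly forms outside the chloroplast or of lower level, and the compartment was not checked. Of 30 listed, 28 were in the files and 27 were tested. Over these, 1 was called higher and 0 lower, where 3.27% and 0.956% of all tested loci were, and their median log2 fold change was 0.065. The called locus, LOC_Os05g35440, rose to 22.6 and 19.2 FPKM in CysNO, against 6.02 and 5.45 FPKM in control (log2 fold change 1.70 ± 0.27, SE; limma, adjusted p = 0.0178). The most abundant were LOC_Os08g02120, LOC_Os01g67860 and LOC_Os04g40950, with log2 fold changes of 0.056, -0.22 and 0.14 (limma, adjusted p from 0.827 to 0.971). In these 27 loci 6 had both CysNO libraries below both controls and 7 had both above, where 24.9% and 21.5% of all tested loci did so.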

How the data were processed

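TruSeq libraries of leaf poly(A) RNA were sequenced as pairs of 100 bp reads, per the labels' protocols. Values are FPKM as the authors deposited them, with 1 per locus in each library's table, per the file headers. Bowtie 0.12.2 is named in the submitters' processing notes, with mm8, a mouse build that cannot be that of rice loci. The counting program, annotation and filters were not given in the sources used here. Total depth is unknown, so no count test or counting interval was used.

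The 21123 loci that reached 1 FPKM in 2 or more libraries were tested on log2(FPKM + 1), which understates the change of low loci, with limma 3.58.1 in R 4.3.3. The fit used a mean-variance trend and all 4 libraries and was two-sided, with Benjamini-Hochberg adjustment over all tested loci and a threshold of 0.05. The fit was checked on simulated data. Ranges, shares and sums were computed per library with pandas 2.3.3. Full values were to be given for called loci, the most abundant locus of each step and the 3 highest and 3 lowest fold changes, and the other members' values were added. The members and lists were chosen with earlier results of these data known. Other settings tried were median centring or quantile normalization, a pseudocount of 0.1, a filter at 5 FPKM or none, a block for the replicate number, and leaving out each library in turn.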

Additional observations from a re-analysis of the deposited data

How the results depend on the processing

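Leaving aside the crossed pairing given below, no member was called higher in the fits run, except LOC_Os04g53210 with a filter of 5 FPKM (1 locus), and none was called lower except without control 2, so that leaving out 1 library gave 0 to 9 lower members. The median log2 fold change ran from -1.19 to -0.34 for the Calvin cycle loci and from -1.45 to -0.35 for the photorespiration loci when 1 library was left out, and stayed below 0 in each fit. Without control 1 the sign turned for PGK (LOC_Os05g41640, -0.63 to 0.038 over the left-out libraries), transketolase (LOC_Os06g04270, -0.23 to 0.052), LOC_Os03g07300 (-0.75 to 0.34) and LOC_Os07g08030 (-0.73 to 0.26, also positive without CysNO 1). The sign of LOC_Os09g36450 (-0.20 to 0.32, and -0.086 with quantile normalization) and of LOC_Os01g51410 (-0.33 to 0.55, and -0.036 with quantile normalization) turned without control 2, without CysNO 2 and with quantile normalization. The cause was not tested.

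Of the 21123 tested loci 691 were called higher and 202 lower. The counts were 393 and 87 with quantile normalization, 381 and 68 with median centring, and 2 and 0 with no filter on low values. With 1 library left out they ran from 0 to 939 higher and from 0 to 565 lower, with 0 in both directions without either CysNO library. With the replicate number as a block there were 53 higher and 2 lower loci and 0 members. Libraries of the same number deviated against each other (r = -0.19 across 21123 loci, which are not independent). The labels do not say whether libraries of the same number share a batch, and this value cannot decide it. A crossed pairing, added after the data were seen, called 1625 loci higher and 1206 lower, 1 and 14 of them members. No label gives that pairing, and it takes out the spread within groups that these members showed. In its fit each locus took its variance from the trend over all loci alone. These counts therefore lend no support to a difference. Depth is unknown, and 2 libraries a group limit what could be detected.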

Other observations

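Among the other loci of the same enzyme steps, the lowest log2 fold changes were those of LOC_Os01g64660 and LOC_Os06g40640, singled out after their values were seen. LOC_Os01g64660 had 4.62 and 7.36 FPKM in CysNO, against 34.0 and 13.0 FPKM in control (log2 fold change -1.69 ± 0.45, SE; limma, adjusted p = 0.0939). LOC_Os06g40640 had 44.2 and 73.2 FPKM in CysNO, against 271 and 127 FPKM in control (log2 fold change -1.69 ± 0.43, SE; limma, adjusted p = 0.0792). Neither passed the test. In both, control 1 was above control 2, by 2.61 and 2.13 times, as in 28 of the 29 loci of the set.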
